A study of Mus musculus with 4 samples.

Results

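The genes described here are 10 genes of elastic fibres and their microfibrils: Eln, Fbn1, Fbn2, Mfap2, Mfap4, Mfap5, Emilin1, Fbln1, Fbln2 and Fbln5. They were chosen by name, with earlier results of these data known. They are 10 of the 27179 genes in the deposited table, matched by Entrez gene ID to mouse symbols. All of the 10 passed the filter on low values, a mean normalized count of at least 10, as did 16253 genes in all. The libraries hold mRNA sequencing of the mouse kidney medulla, the inner kidney where loops of Henle and collecting ducts run, at postnatal day 14 in a mixed C57BL/6 strain. In the 2 libraries labelled Actr3 KO the genotype is Actr3-fl/fl*Cdh16-Cre, floxed Actr3 alleles combined with Cre recombinase driven by the Cdh16 promoter, which is active in kidney tubule epithelium. The other 2 libraries are labelled Actr3 WT, wild type control, and the labels do not say whether these mice carried the floxed allele or Cre. The comparison asks how the medulla differed between these groups.

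Elastic fibres give stretch and recoil to vessels, lung, skin and the walls of hollow organs. Their core is elastin, which is secreted as tropoelastin and cross-linked by lysyl oxidases on a scaffold of fibrillin microfibrils. Microfibrils also run alone in many tissues and bind latent TGF-beta, while fibulins, microfibril-associated proteins and emilins link the parts. In the kidney, elastin lies mainly in the walls of arteries, and microfibrils also lie in the interstitium and around glomerular and tubular basement membranes.

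Actr3, the targeted gene, encodes Arp3, part of the Arp2/3 complex on which branched actin networks depend. Its normalized counts were 12587 and 12480 in the KO-labelled libraries and 8065 and 7275 in the WT-labelled libraries. It was thus higher in the libraries labelled knockout, and counts over the whole gene do not check for a deleted exon. Every direction below rests on the labels, so the groups are called KO-labelled and WT-labelled. Reads assigned to genes, as recovered from the deposited values, summed to 36482238 to 40784436 in each library. Of the genes tested, 51.2% passed the limma test (Benjamini-Hochberg adjusted p under 0.05), 26.3% as higher and 24.9% as lower with the KO label. Nothing beyond the replicate numbers of the titles says that the samples of a group came from separate cages or days, so the p-values measure the spread between these samples, which may be technical. Markers of the medullary tubule were abundant in every library, among them Slc12a1, Umod and Slc14a2. Slc12a1 and Slc14a2 were lower with the KO label (log2 differences of -2.84 and -1.58). Umod did not pass the threshold (log2 difference 0.26, adjusted p = 0.294 by limma).

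Almost the whole set was higher in the KO-labelled medulla. Of the 10 genes, 9 rose and 1, Fbln5, fell. Among all genes tested, 26.3% rose and 24.9% fell, 51.2% in all. The median log2 difference was 1.19 for the 10 genes and 0.00 for all genes tested. In 9 genes both KO-labelled libraries lay above both WT-labelled ones, an order found in 39.8% of the genes tested, and in Fbln5 both lay below, found in 38.7%. Rises of a log2 difference of at least 3 were seen in 3 of the 10, against 2.12% of the genes tested. Log2 differences subtract the WT-labelled from the KO-labelled mean of log2(value + 1), and folds are ratios of mean normalized counts. In bulk tissue, fewer cells of a type and less RNA per cell cannot be told apart.

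**Figure D1:**
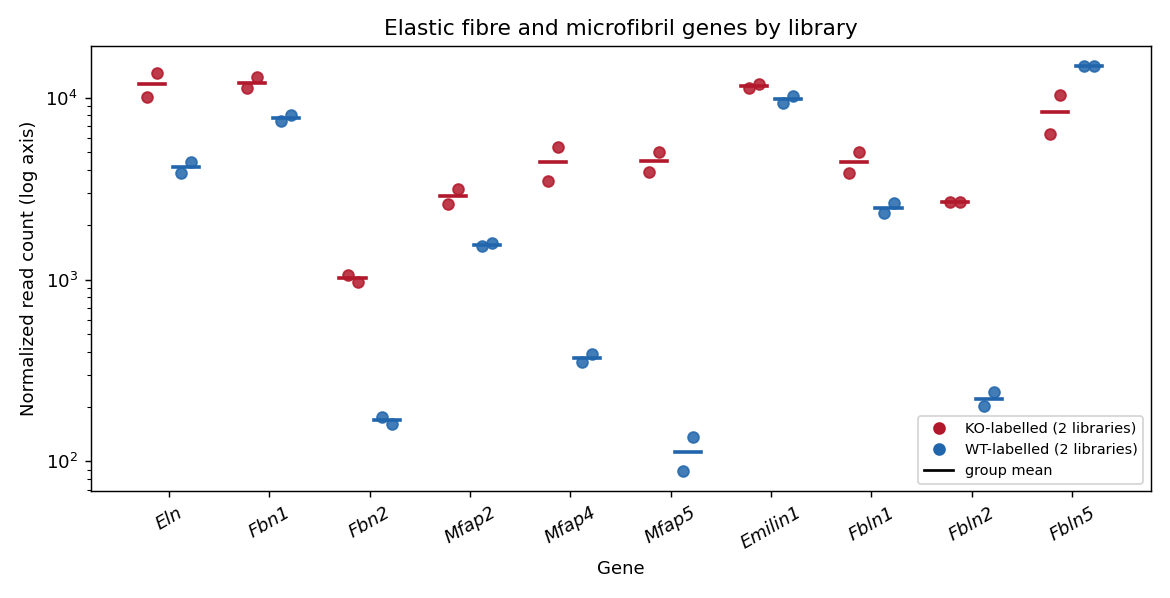
Normalized read count (log axis) of each of the 10 genes in the 2 KO-labelled libraries (red, left of each pair) and the 2 WT-labelled libraries (blue); points are libraries and lines are group means. Mfap5, Mfap4, Fbln2 and Fbn2 show the widest gaps between the groups, and Fbln5 is the gene whose KO-labelled points lie below the WT-labelled ones.

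The start-site sequences of the fibulin genes Fbln1, which rose, and Fbln5, which fell, are shown. Theirs were the only windows left after a filter on overlap with annotated exons, and their directions played no part in it. Each line gives the 250 bases before the most upstream RefSeq start site in GRCm38.p6, 5′ to 3′ on the gene's strand, with matches to GGGCGG on either strand in capitals. The Fbln1 window is chr15:85205699-85205948 (plus strand), and the Fbln5 window is chr12:101819120-101819369 (minus strand).
Fbln1: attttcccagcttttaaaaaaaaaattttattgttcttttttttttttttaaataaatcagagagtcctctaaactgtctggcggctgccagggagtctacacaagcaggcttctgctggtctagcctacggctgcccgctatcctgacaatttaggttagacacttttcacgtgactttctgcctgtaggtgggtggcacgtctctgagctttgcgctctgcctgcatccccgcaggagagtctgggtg
Fbln5: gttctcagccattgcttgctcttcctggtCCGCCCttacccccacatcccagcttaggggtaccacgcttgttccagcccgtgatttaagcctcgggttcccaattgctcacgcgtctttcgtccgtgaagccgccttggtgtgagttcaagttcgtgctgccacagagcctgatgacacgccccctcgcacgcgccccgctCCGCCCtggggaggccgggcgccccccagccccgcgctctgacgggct

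Of the 250 bases, 46.4% were G or C in the Fbln1 window and 65.2% in the Fbln5 window, against a median of 52.4% over 32851 RefSeq promoter windows. GGGCGG, the core of a GC box, matched the Fbln5 window at 2 places, both on the opposite strand, and the Fbln1 window at none. It was found in 32.7% of all windows of this length. Neither window held the AP-1 motif TGANTCA, found in 6.75% of all windows, or the TEAD motif GGAATG, found in 12.6%. Nor did they hold the TATA motif TATAAA, found in 12.4%, or a CArG box, found in 1.47%. Both strands were searched, and each motif was counted alone, whether or not it overlapped another. RefSeq start-site entries were matched for 6 of the 10 genes. The windows of 4 of these overlapped an annotated exon or the span of the gene itself and are not shown.

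Eln, the gene of tropoelastin, lies on chromosome 5 (134702595 to 134747368, GRCm38). Its normalized counts were 10075 and 13619 in the KO-labelled libraries, compared with 3850 and 4437 in the WT-labelled libraries. Both KO-labelled libraries were more than 2 times as high as either WT-labelled one. The means were 11847 ± 2507 and 4144 ± 415 (SD, n = 2 each), 2.86-fold apart, and the log2 difference was 1.50 (SE 0.147, adjusted p = 0.000248 by limma).

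The fibrillins, whose long glycoprotein chains form the microfibril itself, rose to very different extents. Fbn1, the main fibrillin of postnatal tissue (chromosome 2, 125300594 to 125506485), had 11258 and 12923 normalized counts in the KO-labelled libraries and 7470 and 8050 in the WT-labelled libraries. Fbn1 rose 1.56-fold, and the log2 difference was 0.64 (SE 0.0939, adjusted p = 0.00147 by limma). Fbn2, the fibrillin used mostly in development (chromosome 18, 58008623 to 58210572), had 1062 and 965 normalized counts in the KO-labelled libraries and 175 and 161 in the WT-labelled libraries. It rose 6.03-fold, which is 2.58 on the log2 scale (SE 0.14, adjusted p = 2.45e-05 by limma). Fbn1 was the more abundant fibrillin in every library. Per kilobase of transcript, the level of Fbn1 was 9.78 and 12.4 times that of Fbn2 in the KO-labelled libraries, compared with 39.3 and 46.1 times in the WT-labelled libraries.

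Of the microfibril-associated proteins, Mfap5 had the largest log2 difference of the 10 genes. Mfap5, a microfibril-associated glycoprotein that binds fibrillin (chromosome 6, 122513584 to 122529290), was scarce in the WT-labelled medulla. Its normalized counts were 3897 and 5043 in the KO-labelled libraries and 88.6 and 136 in the WT-labelled libraries. The means were 4470 ± 811 and 112 ± 33.6 (SD, n = 2 each), a rise of 39.8-fold, or 5.32 on the log2 scale (SE 0.221, adjusted p = 1.1e-05 by limma). By log2 difference Mfap5 ranked 48 of the 16253 genes tested.

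Mfap2, the close relative of Mfap5 that also binds fibrillin and latent TGF-beta (chromosome 4, 141010424 to 141015976), moved far less. Its normalized counts were 2607 and 3161 in the KO-labelled libraries and 1525 and 1586 in the WT-labelled libraries, a 1.85-fold rise (log2 difference 0.88, SE 0.11, adjusted p = 0.00068 by limma). Per kilobase, Mfap5 stood at 1.06 and 1.14 times the level of Mfap2 in the KO-labelled libraries, and at 0.0414 and 0.0612 times that level in the WT-labelled libraries. The KO-labelled ratio depends on the length used: with the union of annotated exons it was 0.504 and 0.538 in the KO-labelled libraries, and 0.0196 and 0.029 in the WT-labelled libraries. Mfap4, a glycoprotein with a fibrinogen-related domain that binds elastin and fibrillin (chromosome 11, 61485431 to 61488708), had normalized counts of 3478 and 5373 in the KO-labelled libraries and 353 and 390 in the WT-labelled libraries. It rose 11.9-fold (log2 difference 3.54, SE 0.194, adjusted p = 2.56e-05 by limma).

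Emilin1 encodes a glycoprotein found where elastin meets the microfibrils, known in mice to restrain the processing of pro-TGF-beta. It was abundant in both groups and differed least (chromosome 5, 30913387 to 30921279). Its normalized counts were 11298 and 11918 in the KO-labelled libraries and 9342 and 10227 in the WT-labelled libraries. The groups did not overlap, and the 1.19-fold rise passed the threshold narrowly (log2 difference 0.25, SE 0.0826, adjusted p = 0.0414 by limma). The call was lost without WT replicate 1 (adjusted p = 0.165), without KO replicate 1 (0.0948) and without KO replicate 2 (0.202), and over all alternatives the limma, edgeR and DESeq2 adjusted p ran from 0.0231 to 0.202.

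The fibulins, modular calcium-binding glycoproteins that bridge elastin, microfibrils and basement membranes, split in direction. Fbln2, a fibulin of vessel walls and of developing tissue (chromosome 6, 91212460 to 91272540), had normalized counts of 2678 and 2682 in the KO-labelled libraries and 203 and 240 in the WT-labelled libraries. The KO-labelled libraries were nearly identical, and the rise was 12.1-fold (log2 difference 3.60, SE 0.123, adjusted p = 6.21e-06 by limma). Fbln1, found in elastic fibres and basement membranes (chromosome 15, 85205949 to 85286294), had 3834 and 5014 normalized counts in the KO-labelled libraries and 2320 and 2629 in the WT-labelled libraries. It rose 1.79-fold (log2 difference 0.83, SE 0.136, adjusted p = 0.00241 by limma). Per kilobase, Fbln2 stood at 0.534 and 0.409 times the level of Fbln1 in the KO-labelled libraries, compared with 0.0669 and 0.0697 times in the WT-labelled libraries.

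Fbln5, which tethers tropoelastin to microfibrils and to integrins and is needed for elastic fibres in mice (chromosome 12, 101746565 to 101819119), went the other way. Its normalized counts were 6325 and 10283 in the KO-labelled libraries and 14888 and 14827 in the WT-labelled libraries. The WT-labelled libraries agreed closely, whereas the KO-labelled libraries differed by more than 1.5 times. The means were 8304 ± 2799 and 14858 ± 43.2 (SD, n = 2 each), 1.79-fold lower in the KO-labelled libraries (log2 difference -0.88, SE 0.201, adjusted p = 0.00982 by limma). The call did not hold without WT replicate 1 (log2 difference -0.88, adjusted p = 0.052), and the log2 difference was -0.53 without KO replicate 1 and -1.23 without KO replicate 2. Endothelial markers were lower in the same libraries (8 of 8 fell, against 24.9% of all genes tested, median log2 difference -1.29). Their summed normalized counts were 30406 and 28571 in KO replicates 1 and 2, and 85514 and 87883 in WT replicates 1 and 2. Proximal tubule markers (4 of 5 fell) had 7357 and 14869 in KO replicates 1 and 2, and 26715 and 37627 in WT replicates 1 and 2. Medullary tubule and urothelial markers also fell, in 7 of 9 and 5 of 5 cases. The part of these lists in the difference of Fbln5 was not tested. Of the endothelial markers, Plvap, Eng and Pecam1 had the highest normalized counts without scaling by length. Their log2 differences were -2.18, -1.13 and -1.15. Per kilobase, Fbln5 stood at 0.415 and 0.499 times the level of Eln in the KO-labelled libraries, compared with 2.56 and 2.21 times in the WT-labelled libraries. With the union of annotated exons as the length, these ratios were 0.736 and 0.885 in the KO-labelled libraries and 4.53 and 3.92 in the WT-labelled libraries.

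**Figure D2:**
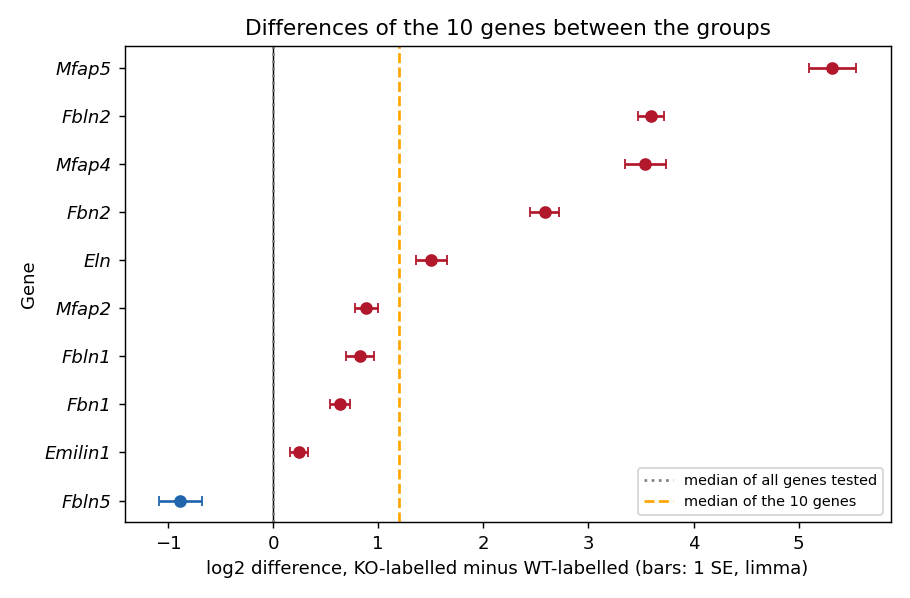
Log2 difference (KO-labelled minus WT-labelled) of each of the 10 genes with its standard error from limma; the dotted line is the median of all genes tested (0.00) and the dashed line that of the 10 genes (1.19). Mfap5 lies at 5.32, Emilin1 just right of 0 at 0.25, and Fbln5 alone lies left of 0, at -0.88.

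Within-library ratios set aside the scaling between libraries, and 5 were computed. The KO-labelled minus WT-labelled difference in log2 ratio was 4.45 for Mfap5 to Mfap2, 2.78 for Fbln2 to Fbln1, 0.87 for Eln to Fbn1, -1.95 for Fbn1 to Fbn2 and -2.38 for Fbln5 to Eln. Each difference exceeded the pooled SD between replicates, which ran from 0.128 to 0.285, and the groups overlapped in none of the 5. With 2 libraries against 2, the exact two-sided permutation test gave p = 0.333 for each, the smallest it can give. The share of other gene pairs that separate in this way was not computed. Among single genes tested, 39.8% had both KO-labelled libraries above both WT-labelled ones, and 38.7% had both below. The pairs joined genes of unlike log2 difference, such as Mfap5 (5.32) and Mfap2 (0.88), so the ratios largely restate those differences.

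Levels of different genes were compared as normalized counts per kilobase of the longest coding transcript. The summed level of the 10 genes was 16315 and 20905 per kilobase in the KO-labelled libraries, compared with 8980 and 9601 in the WT-labelled libraries, a 2.00-fold difference of the means. In the KO-labelled medulla Eln, Emilin1, Mfap5, Mfap2 and Mfap4 led, with mean levels of 3075, 3014, 2968, 2688 and 2570 per kilobase. Parts of this order changed between the libraries: Emilin1 led in KO replicate 1, at 2933 against 2615 for Eln, and Eln led in KO replicate 2, at 3535 against 3094 for Emilin1. Mfap2 and Mfap4 also changed places, whereas Eln was above Mfap5, and Mfap5 above Mfap2, in both libraries. In the WT-labelled medulla Fbln5 and Emilin1 led at 2549 and 2540 per kilobase, Fbln5 being first in WT replicate 1 and Emilin1 in WT replicate 2, and Mfap2 followed at 1450.

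The composition of the set differed as well as its size. Fbln5 and Emilin1 made up 7.54% and 16.4% of the summed level in the KO-labelled libraries on average, against 27.5% and 27.3% in the WT-labelled libraries. Mfap5 and Mfap4 made up 15.9% and 13.7% of it in the KO-labelled libraries, compared with 0.799% and 2.32% in the WT-labelled libraries. Eln held 16.5% and 11.6% in the KO-labelled and WT-labelled libraries, and Mfap2 14.5% and 15.6%. Fbn2 held 0.504% and 0.164%, the lowest share of the 10 in both groups. The length used matters for the order and the shares: with the union of annotated exons as the length, Mfap2 led the KO-labelled libraries at 2382 per kilobase, and Eln stood at 1463. In KO-labelled libraries Eln then made up 10.8% and Mfap5 9.25%, and in WT-labelled libraries Eln made up 6.90% and Mfap5 0.421%.

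**Figure D3:**
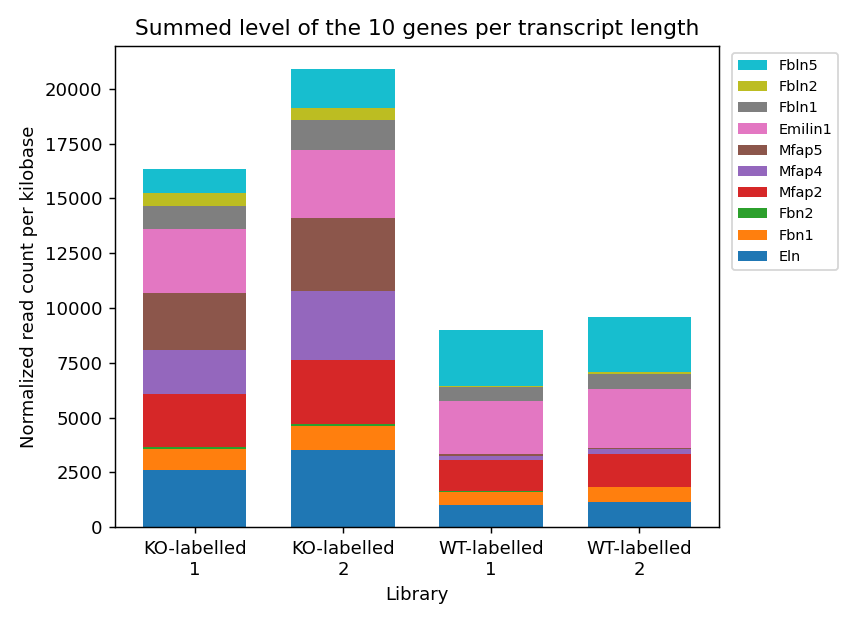
Normalized read count per kilobase of the longest coding transcript, stacked over the 10 genes, in the 2 KO-labelled libraries (left) and the 2 WT-labelled libraries (right). The stacks reach 16315 and 20905 in the KO-labelled libraries and 8980 and 9601 in the WT-labelled libraries; Mfap4 and Mfap5 are thick bands in the KO-labelled stacks and thin ones in the WT-labelled stacks, while Fbln5 is thinner in the KO-labelled stacks.

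The KO-labelled libraries were not equal in these genes. KO replicate 2 was above KO replicate 1 in 9 of the 10, Fbn2 being the exception, against 46.8% of all genes tested. The median log2 difference between these replicates was 0.33 over the 10 genes and -0.02 over all genes tested. Among the WT-labelled libraries, replicate 2 was higher in 8 of the 10, against 51.2% of all genes tested, with a median log2 difference of 0.14 over the 10 genes and 0.01 over all genes tested. Summed normalized counts of 3 of the 7 marker lists were also higher in replicate 2 of both groups. Smooth muscle and pericyte markers had 37674 and 45656 in KO replicates 1 and 2 and 11436 and 16044 in WT replicates 1 and 2. Fibroblast markers had 478370 and 552398 in KO replicates 1 and 2 and 198312 and 205120 in WT replicates 1 and 2. Proximal tubule markers had 7357 and 14869 in KO replicates 1 and 2 and 26715 and 37627 in WT replicates 1 and 2. Medullary tubule markers had 280300 and 191446 in KO replicates 1 and 2, the other way round, and 477819 and 506864 in WT replicates 1 and 2. The part of these markers in the spread between replicates was not tested.

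The genes whose centred log2 profile over the 4 libraries lay closest to that of Eln were Tpm2, Slc10a4l and Ptn, at root mean square distances of 0.0254, 0.0277 and 0.0416. Tpm2, a tropomyosin of contractile cells, had normalized counts of 2747 and 3537 in the KO-labelled libraries and 1027 and 1191 in the WT-labelled libraries. Ptn encodes pleiotrophin, a heparin-binding growth factor. With 4 libraries in 2 groups, the measure rests mainly on the size of the group difference. No other gene of the set was among the nearest: Mfap2 was the closest, at 0.319, with 806 tested genes nearer.

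A wider set of 50 genes covered the enzymes that cross-link elastin, the other fibulins and emilins, latent TGF-beta binding proteins, assembly factors, matrix partners, TGF-beta ligands, integrins and elastin-degrading enzymes. Of the 49 tested, 32 rose, 6 fell and 11 did not pass the threshold, against 26.3% higher and 24.9% lower among all genes tested. Their median log2 difference was 0.64, and they too were chosen with earlier results of these data known.

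Among the 5 lysyl oxidase genes, 3 rose and none fell, against 26.3% and 24.9% of all genes tested. Loxl1, which in mice cross-links elastin and maintains elastic fibres after birth, rose 5.89-fold, with 9105 and 7064 normalized counts in the KO-labelled libraries and 1240 and 1503 in the WT-labelled libraries (adjusted p = 2.72e-05 by limma). Loxl3 rose by a log2 difference of 0.84. Lox, which acts on both collagen and elastin, rose by 0.39 (adjusted p = 0.0156 by limma). This call did not hold without WT replicate 1 (0.0507), without WT replicate 2 (0.0663) or without KO replicate 2 (0.0995). Loxl2 and Loxl4 had log2 differences of -0.05 and 0.07 (adjusted p = 0.641 and 0.787 by limma).

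The other fibulin genes all rose, 5 of 5, against 26.3% of all genes tested. Fbln7 rose by a log2 difference of 1.75, Hmcn2 by 1.22 and Efemp2, which in mice brings lysyl oxidase to tropoelastin, by 1.00. Efemp2 had 5408 and 5521 normalized counts in the KO-labelled libraries and 2590 and 2889 in the WT-labelled libraries (adjusted p = 0.000132 by limma). Efemp1 rose by 0.32, a call lost without KO replicate 1 (adjusted p = 0.0785 by limma), and Hmcn1 by 0.52, a call lost without WT replicate 1 (0.0518), WT replicate 2 (0.177) or KO replicate 2 (0.143). All 5 thus rose where Fbln5 fell.

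The latent TGF-beta binding proteins, which sit on fibrillin microfibrils, went in different directions. Ltbp2, which binds fibrillin and does not bind latent TGF-beta, had 5744 and 4029 normalized counts in the KO-labelled libraries and 36.4 and 25.8 in the WT-labelled libraries, a 157-fold rise (log2 difference 7.25, adjusted p = 4.48e-06 by limma). Ltbp3 rose by a log2 difference of 0.72. Ltbp4, which in mice works with Fbln5 in depositing elastin, fell as Fbln5 did, with 6288 and 7131 normalized counts in the KO-labelled libraries and 10021 and 10645 in the WT-labelled libraries (log2 difference -0.63, adjusted p = 0.00128 by limma). Ltbp1 had a log2 difference of -0.10 (adjusted p = 0.365 by limma). The TGF-beta ligand genes Tgfb1, Tgfb2 and Tgfb3 all rose, by log2 differences of 0.61, 2.26 and 2.30.

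Among the other emilins and multimerins, 2 of 4 rose and 1 fell, against 26.3% and 24.9% of all genes tested. Emilin3, nearly silent in the WT-labelled libraries, had 135 and 94 recovered reads in the KO-labelled libraries and 0 and 10 in the WT-labelled libraries. Its log2 difference was 5.11 (adjusted p = 0.00554 by limma) and was 3.38 without WT replicate 1. Mmrn1 rose by a log2 difference of 1.13, and Emilin2 had one of 0.37 (adjusted p = 0.102 by limma). Mmrn2, a multimerin of endothelium, fell by a log2 difference of -1.41, beside the fall of all 8 endothelial markers.

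The ADAMTS and ADAMTS-like proteins that act on fibrillin microfibrils were mixed, with 2 of 7 higher and 2 lower. These counts lay near the shares over all genes tested, 26.3% higher and 24.9% lower. Adamts10 and Adamts17, whose loss disturbs microfibrils, fell by log2 differences of -0.95 and -1.26, the second being -0.79 without KO replicate 1. Adamtsl5 and Adamtsl2 rose by 1.20 and 0.64, the second being 0.39 without WT replicate 1. Adamtsl4, Thsd4 and Adamts6 did not pass the threshold, at log2 differences of -0.08, 0.21 and 0.20, and Thsd4 passed it without WT replicate 2 (0.31, adjusted p = 0.0394 by limma).

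Of 6 matrix partners, 3 rose and 1 fell, against 26.3% and 24.9% of all genes tested. Fn1, the fibronectin on which fibrillin is assembled, rose 3.35-fold, with 75694 and 83238 normalized counts in the KO-labelled libraries and 23950 and 23534 in the WT-labelled libraries. Vcan, versican, a proteoglycan that binds fibrillin and fibulins, rose by a log2 difference of 1.58, and Bgn, biglycan, by 0.52. Tnxb, tenascin-X, fell by a log2 difference of -1.64. Dcn and Hspg2, which encode decorin and perlecan, had log2 differences of 0.33 and 0.16 (adjusted p = 0.169 and 0.151 by limma), and Dcn passed the threshold without KO replicate 1 (0.59, adjusted p = 0.0119).

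Integrin genes, whose products bind fibrillins, fibulins, emilins or latent TGF-beta, rose in 6 of 9 cases, against 26.3% of all genes tested. Itgb3 rose by a log2 difference of 3.03, Itgav, its alpha partner, by 1.18, Itgb5 by 0.81 and Itga9, which with Itgb1 binds emilin, by 1.15. Itga8 fell, with 1591 and 2073 normalized counts in the KO-labelled libraries and 11690 and 9277 in the WT-labelled libraries (log2 difference -2.52, adjusted p = 3.72e-05 by limma). Itgb1 and Itgb6 had log2 differences of 0.15 and 0.26 (adjusted p = 0.191 and 0.0596 by limma), and Itgb6 passed the threshold without KO replicate 2 (0.36, adjusted p = 0.0353).

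Genes of enzymes that can cut elastin rose in all 6 tested cases, against 26.3% of all genes tested, with a median log2 difference of 3.38. Mmp12, macrophage elastase, had 1230 and 957 normalized counts in the KO-labelled libraries and 8.86 and 17.9 in the WT-labelled libraries (log2 difference 6.31, adjusted p = 2.29e-05 by limma). Mmp7 rose by a log2 difference of 9.26, a size that rests on few WT-labelled reads. It had 3094 and 2481 recovered reads in the KO-labelled libraries and 6 and 2 in the WT-labelled libraries. Ctss, a cysteine protease of antigen-presenting cells, rose by 3.19. Ctsk and Mmp2 rose by 1.16 and 0.63, and Mmp9 by 3.57. Elane, neutrophil elastase, was not tested, with 1 recovered read in KO replicate 1 and 0 in the other 3 libraries. Macrophage markers were higher in the same libraries (8 of 8 rose, against 26.3% of all genes tested). Their summed normalized counts were 46843 to 47317 in the KO-labelled and 9377 to 9391 in the WT-labelled libraries. The part of these markers in the rise of the enzymes was not tested. Lyz2, Csf1r and C1qa, which had the highest normalized counts of the macrophage markers without scaling by length, rose by log2 differences of 2.94, 1.32 and 2.67.

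**Figure D4:**
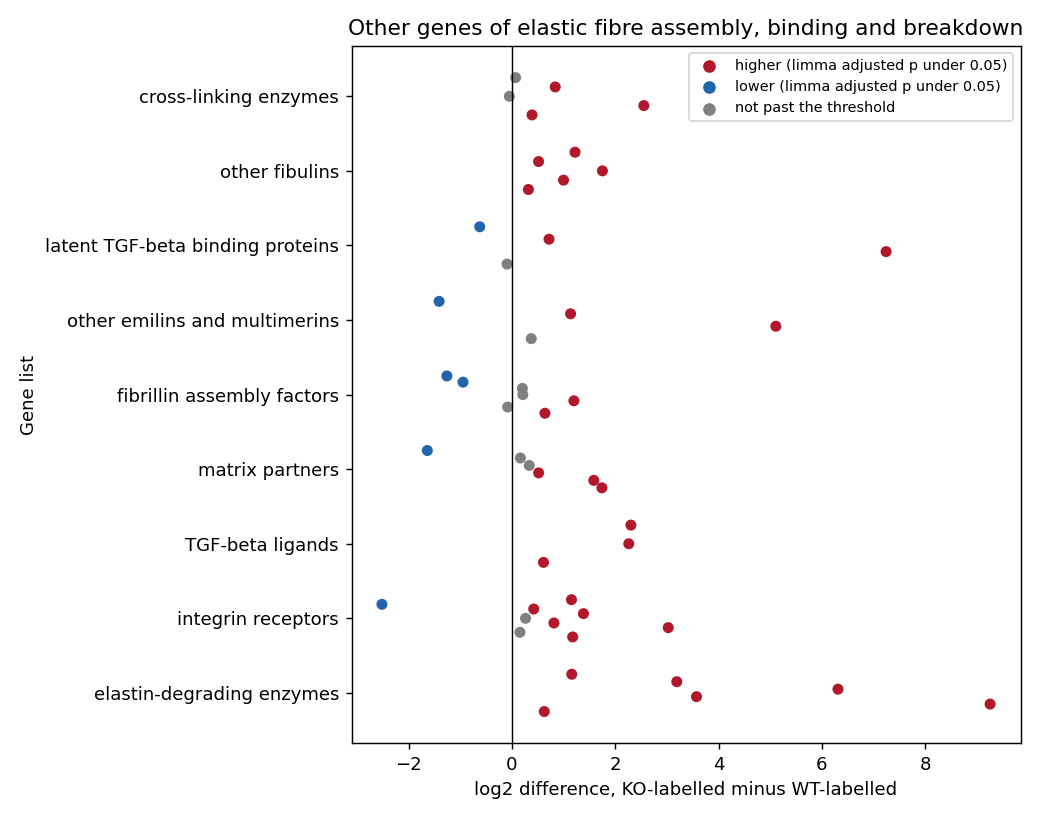
Log2 difference (KO-labelled minus WT-labelled) of the 49 tested genes of the wider set, 1 point a gene and 1 line a list, coloured by the limma call. All points of the other fibulins, the TGF-beta ligands and the elastin-degrading enzymes are red (higher), and the blue (lower) points are Ltbp4, Mmrn2, Adamts10, Adamts17, Tnxb and Itga8.

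Elastic fibre genes are made chiefly by fibroblasts, smooth muscle cells and endothelium, and markers of these cells were read beside them. Of 9 fibroblast markers, 6 rose and 1 fell, against 26.3% and 24.9% of all genes tested. Summed normalized counts of these markers were 478370 to 552398 in the KO-labelled and 198312 to 205120 in the WT-labelled libraries. The collagen genes among them rose, Col3a1 by a log2 difference of 1.61, Col1a1 by 2.59 and Col1a2 by 1.00. Lum, Dpt and Postn rose by 1.83, 1.48 and 1.18. The receptor genes Pdgfra and Pdgfrb did not pass the threshold, at log2 differences of -0.10 and 0.14 (adjusted p = 0.489 and 0.183 by limma). Tcf21, a stromal transcription factor gene, fell by a log2 difference of -0.48, a call that did not hold without WT replicate 1 (adjusted p = 0.0652 by limma) or without KO replicate 1 (0.0561).

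Of 7 smooth muscle and pericyte markers, 5 rose and 1, Rgs5, fell. Acta2 and Tagln, contractile genes that activated fibroblasts also use, rose by log2 differences of 2.30 and 2.16. Myh11, the smooth muscle myosin heavy chain, rose by 0.56, a call that did not hold without WT replicate 1 (adjusted p = 0.109 by limma) or without KO replicate 2 (0.084). Cnn1 and Cspg4 rose by log2 differences of 3.50 and 0.54. Des had a log2 difference of 0.09 (adjusted p = 0.487 by limma). None of the markers of these lists was at 0 in any library. The urothelial markers, which would show renal pelvis in a sample, fell in 5 of 5 cases, with summed normalized counts of 389 to 618 in the KO-labelled and 2164 to 2561 in the WT-labelled libraries. Medullary tubule markers fell in 7 of 9 cases and proximal tubule markers in 4 of 5. Of the medullary tubule markers that did not fall, Umod did not pass the threshold. Cldn16 rose by a log2 difference of 0.28, a call lost when any 1 library was left out. The proximal tubule markers had summed normalized counts of 7357 and 14869 in the KO-labelled and 26715 and 37627 in the WT-labelled libraries. Among all genes tested, 26.3% rose and 24.9% fell. The part of cell makeup, including which tissue each sample held, in the differences of the 10 genes was not tested.

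**Figure D5:**
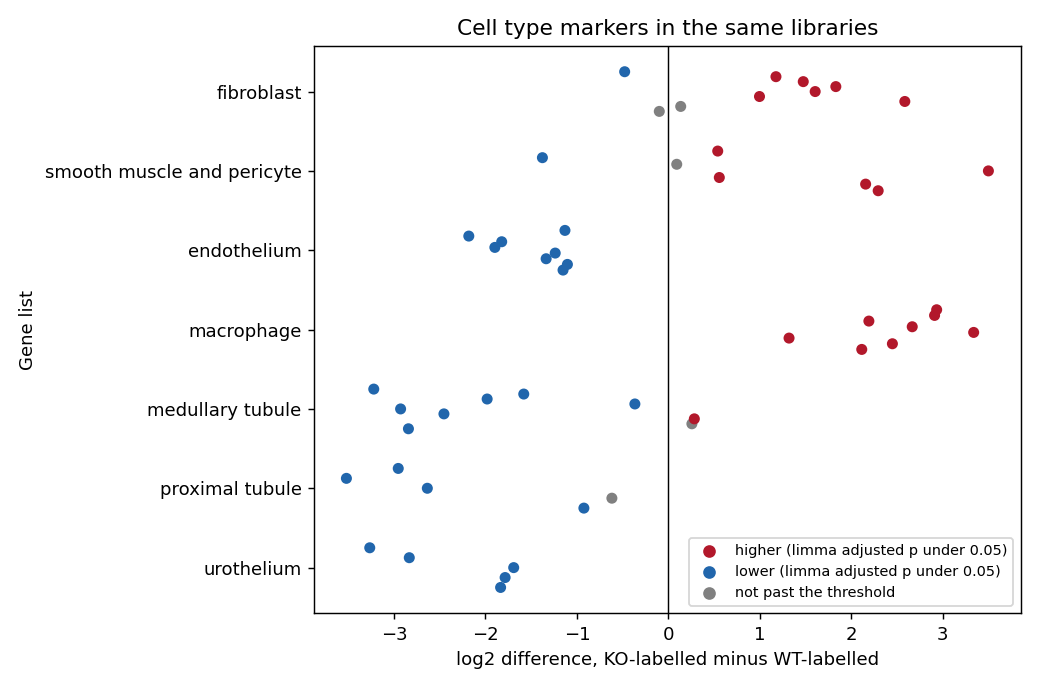
Log2 difference (KO-labelled minus WT-labelled) of markers of 7 cell types, 1 point a gene, coloured by the limma call. Macrophage points all lie right of 0, endothelial, urothelial and proximal tubule points all lie left of it, and fibroblast and smooth muscle points lie on both sides.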

How the data were processed

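Per the labels' protocols, total RNA of the kidney medulla was isolated with a Qiagen kit, and Eurofins GATC Biotech prepared and sequenced the libraries. The submitters' processing notes name DESeq2 2.11.40.7, featureCounts 2.0.1, HISAT2 2.2.1 and fastp 0.20.1, and mm10 and GRCm38 as builds. The annotation and the strand setting were not given in the sources used here, so overlapping genes may share reads. The deposited values are a signal per gene and library: read counts that the authors divided by a size factor for each library. The values show this, since 100% of each column were whole multiples of 1 step within 0.001; the steps were 1.07 and 0.942 (KO) and 0.985 and 0.994 (WT), and multiplying back gave the recovered reads.

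Of the 27179 Entrez IDs, 25275 matched a symbol in a RefSeq table of GRCm38.p6, the source of coordinates and start-site sequences. Transcript lengths came from GENCODE M21. The main test was a two-sided limma test (limma 3.58.1, R 4.3.3) of log2(value + 1) with a trended variance, over genes with a mean of at least 10, with Benjamini-Hochberg adjustment over all of them and a threshold of 0.05. Alternatives were pseudocounts, filters, variance models, scalings, edgeR 4.0.16 and DESeq2 1.42.0 on recovered reads, a replicate block, and the omission of each library in turn, which assumes that the lone library left varies as the other group does. The main limma test and the edgeR and DESeq2 tests were first run on simulated data. The other alternatives and the permutation test were not. The 10 genes, the wider lists and the rule for named genes were chosen with earlier results of these data known. The rule named the 10 genes, up to 4 called genes of each wider list with those not called where 3 or fewer, up to 3 markers a cell type by mean level, and the 3 profiles nearest Eln. Hmcn1, Itga9, Ctsk, Mmp2, Elane, Pdgfra, Pdgfrb, Lum, Dpt, Postn, Tcf21, Rgs5, Des, Cnn1, Cspg4 and Cldn16 were named beyond it, after their values were seen.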

Additional observations from a re-analysis of the deposited data

How the results depend on the processing

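Over 17 alternatives, Eln, Fbn1, Fbn2, Mfap2, Mfap4, Mfap5, Fbln1 and Fbln2 kept their direction and their call in all of them; for Mfap5 the log2 difference ran from 5.01 to 5.63, and for Fbn1 from 0.54 to 0.74. Emilin1 kept its direction in the 17 and its call in 10, and Fbln5 its direction in the 17 and its call in 15. The count of the 10 genes that fell was thus 0 with no variance trend (Fbln5, adjusted p = 0.0652), and it ran from 0 to 1 when each library was left out; the cause was not tested. The counts of higher and lower genes, over all genes and over the wider set, stayed within 1.5 times the main counts, as did the count of the 10 that rose (8 to 9).

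With the replicate number as a block, 8 of the 10 rose and 1 fell, Emilin1 no longer passing (adjusted p = 0.0784), and 3810 genes in all were higher and 3619 lower, against 4277 and 4051 without it. The deviations of same-numbered samples from their group means correlated at -0.0564 across genes, and the samples were taken to share only a number.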
